A study of Rattus norvegicus with 8 samples.

Results

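Dio2, Dio3, Slco1c1, Ttr, Crym, Klf9 and Hr are 7 genes that handle thyroid hormone or respond to it. They were picked out by gene symbol with no threshold on their values, although with earlier results of these data known, and all 7 of 7 were found among the 33294 genes of the deposited table and passed the filter on low values. They were measured in the neurohypophysis (neural lobe of the pituitary) of male Sprague Dawley rats aged 125 days (n = 4 libraries) or 35 days (n = 4, labelled the control age), sequenced as poly(A)-selected RNA to ask how gene expression changes with age. Rats of both ages were anesthetized with isoflurane and perfused with phosphate-buffered saline before the lobe was removed and frozen, and the labels give no genetic change and no other agent. Whether each library came from its own rat is not said, so the replicate spread behind the p-values may in part be technical.

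Thyroid hormone reaches brain tissue mostly as thyroxine, which carriers take across membranes. Inside glia, type 2 deiodinase converts it to the active hormone triiodothyronine. Type 3 deiodinase inactivates both forms. The active hormone binds nuclear receptors, which switch target genes on or off. The neural lobe holds axon terminals of hypothalamic neurons, pituicytes (their glia) and fenestrated capillaries. Tanycytes and astrocytes, the glial relatives of pituicytes, are the best known sites of type 2 deiodinase in brain.

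Values are depth-normalized counts, that is gene read counts divided by the authors' size factor of each library. They were compared with limma on log2(value + 1) across 17919 genes, with Benjamini-Hochberg adjustment over all of them and a call at an adjusted p below 0.05. Recovered reads ran from 28429133 to 58696254 per library. Reads from neighbouring tissue differed between libraries. Gh1, the growth hormone gene of the anterior lobe, took 0.00392 to 0.0943% of reads at 125 days and 0.0112 to 2.68% at 35 days, highest in 35-day replicate 3. Pomc, the precursor gene of intermediate lobe melanotrophs, took 10.1 to 14.3% at 125 days and 5.65 to 10.2% at 35 days. The pituicyte transcription factor genes Rax, Lhx2 and Nkx2-1 were between 1351 and 3880 in every library, so markers of the labelled tissue were present. A lower value of a gene can mean fewer cells of a type or less RNA per cell, which cannot be told apart in bulk tissue.

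At 125 days the deiodinase genes Dio2 and Dio3 and the thyroxine carrier gene Slco1c1 were lower than at 35 days, and Crym, which encodes a cytosolic hormone-binding protein, was higher. The response genes Klf9 and Hr and the thyroxine carrier protein gene Ttr did not pass the threshold. Thus 3 of 7 genes were lower, where 8.87% of all genes tested were, and 1 of 7 was higher, where 8.85% of all genes tested were. In either direction 17.7% of all genes were called. The median log2 change of the 7 genes was -0.08, against 0.0072 over all genes tested.

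**Figure D1:**
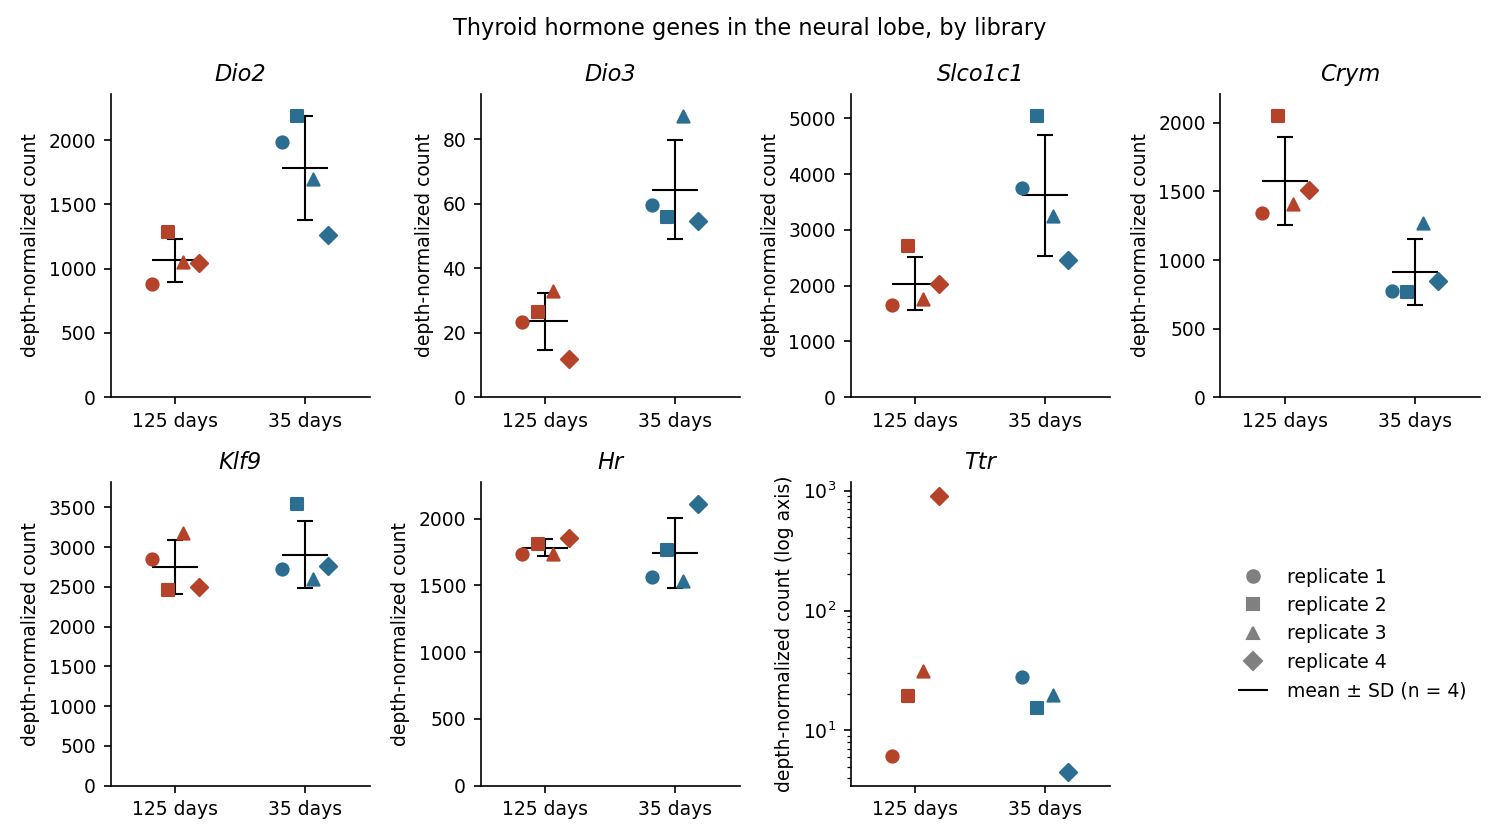
Depth-normalized counts of the 7 genes in each library (y axes start at 0, except for Ttr, which has a log axis), 125 days left and 35 days right, with replicates 1 to 4 as circle, square, triangle and diamond and bars at mean ± SD (n = 4; none for Ttr). Dio3 and Crym do not overlap between ages, Dio2 and Slco1c1 overlap in 1 library of each age, and Ttr stands at 904 in 125-day replicate 4 alone.

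The promoters of both deiodinase genes are shown because both genes were lower at 125 days. RefSeq promoter sequence (assembly GRCr8, which differs from build rn7 of the counts) was matched for 4 of the 7 genes, and 250 bases upstream of the annotated start are printed 5′ to 3′ on the gene's strand. Dio2 lies on the minus strand at chr6:115410595-115410844 and Dio3 on the plus strand at chr6:135106822-135107071. Capitals mark the TATA box letters TATAAA and the GC box letters GGGCGG, which read CCGCCC when on the opposite strand.
Dio2: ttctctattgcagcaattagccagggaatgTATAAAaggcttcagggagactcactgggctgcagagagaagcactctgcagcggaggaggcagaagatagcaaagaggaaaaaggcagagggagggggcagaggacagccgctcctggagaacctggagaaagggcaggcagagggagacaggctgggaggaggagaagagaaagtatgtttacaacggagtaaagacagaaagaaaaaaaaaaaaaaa
Dio3: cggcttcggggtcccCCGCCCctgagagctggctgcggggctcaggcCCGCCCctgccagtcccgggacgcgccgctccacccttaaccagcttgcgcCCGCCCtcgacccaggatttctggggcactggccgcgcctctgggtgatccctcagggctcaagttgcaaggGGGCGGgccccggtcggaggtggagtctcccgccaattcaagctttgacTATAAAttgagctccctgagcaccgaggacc
TATAAA begins 31 bases upstream of the annotated start in Dio3 and 220 bases upstream in Dio2, and 12.9% of 33469 upstream windows of this length hold it on either strand. The GC box letters occur 1 time on the gene's strand and 3 times on the other in Dio3, and not in Dio2, against 30.5% of windows with at least 1 match. The nuclear receptor half-site AGGTCA was searched on both strands too and is in neither window, while 14.1% of windows hold it. These matches describe letters and not bound factors.

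Dio2 encodes the deiodinase that makes the active hormone. It was at 880, 1285, 1054 and 1048 depth-normalized counts in 125-day replicates 1 to 4, and at 1987, 2189, 1699 and 1263 in 35-day replicates 1 to 4. The ages overlapped by a small margin, with 125-day replicate 2 just above 35-day replicate 4. The means were 1067 ± 167 at 125 days and 1784 ± 401 at 35 days (SD, n = 4 each), a log2 change of -0.72 (SE 0.18, 95% interval -1.12 to -0.33, limma adjusted p = 0.0190). Leaving out 35-day replicate 1 or 2, or 125-day replicate 1, 3 or 4, ended the Dio2 call (adjusted p from 0.0532 to 0.0626), and the log2 change ran from -0.88 to -0.62 over the 8 fits that left out 1 library.

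Slco1c1 encodes OATP1C1, a thyroxine carrier of brain capillaries and astroglia. It was at 1648, 2712, 1759 and 2029 in 125-day replicates 1 to 4, and at 3747, 5044, 3246 and 2456 in 35-day replicates 1 to 4. As for Dio2, the highest 125-day library was replicate 2 and the lowest 35-day library was replicate 4, and these overlapped. The means were 2037 ± 478 at 125 days and 3623 ± 1086 at 35 days (SD, n = 4 each), a log2 change of -0.81 (SE 0.22, limma adjusted p = 0.0301). The same 5 omissions ended the Slco1c1 call (adjusted p from 0.0699 to 0.0937), and so did a fit with no intensity trend (0.0527) or with a term for anterior lobe marker level (0.0566).

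Dio2 and Slco1c1 varied together from library to library. Over the 8 libraries Pearson's r between them was 0.98, and after each age's mean was removed it was 0.95. Among 17918 other genes Slco1c1 stood 5th in its correlation with Dio2, and 9th once age means were removed (a description over 8 libraries that share their depth and tissue make-up). Both genes also followed the level of 10 pituicyte markers, with r = 0.92 for Dio2 and 0.92 for Slco1c1, and r = 0.74 and 0.77 within ages. With 8 endothelial markers r was 0.84 for Dio2 and 0.87 for Slco1c1 (0.46 and 0.63 within ages), and with 8 oligodendrocyte markers it was 0.94 for each (0.84 and 0.86 within ages).

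Some glial markers and most endothelial markers fell at 125 days too. Of the 10 pituicyte markers 3 were called lower (Gfap, S100b and Aqp4) and none higher, and none was at 0 in any library. The log2 change was -1.62 for Gfap, -1.39 for S100b and -1.22 for Aqp4. The other 7 ran from -0.58 (Scn7a) to -0.11 (Rax). The summed level of the 10 markers ran from 58223 to 87222 at 125 days and from 73543 to 126382 at 35 days. Of the 8 endothelial markers 7 were called lower and none was at 0, with sums of 9888 to 18923 at 125 days and 18313 to 23492 at 35 days. The mean log2 level of the pituicyte list did not overlap between ages (11.62 to 12.29 at 125 days, 12.35 to 12.76 at 35 days), nor did that of the endothelial list (9.63 to 10.4 at 125 days, 10.6 to 10.8 at 35 days). Of the 8 oligodendrocyte markers 1 was called lower (Mag) and none was at 0. Mag was near 0 at 125 days (0.978 to 4.89) and at 10.2 to 46.5 at 35 days. Sums of the 8 markers overlapped, at 6313 to 7882 at 125 days and 6862 to 11932 at 35 days. The mean log2 level of these markers, in which low genes weigh as much as high ones, did not overlap (6.67 to 7.14 at 125 days, 7.29 to 8.45 at 35 days). Its part in the Dio2 and Slco1c1 results was not tested. With a term for pituicyte level in the model, an alternative chosen after seeing the data, the log2 change was -0.11 for Dio2 (SE 0.26, adjusted p = 0.818) and 0.02 for Slco1c1 (SE 0.30, adjusted p = 0.967). With the endothelial level, also chosen after seeing the data, it was -0.33 for Dio2 (SE 0.34, adjusted p = 0.764) and -0.10 for Slco1c1 (SE 0.37, adjusted p = 0.943). Of 5 intermediate lobe markers 1 was called higher by limma (Pcsk2), none was called lower and 4 did not pass the threshold. With edgeR, and also with DESeq2, 2 of these markers were called higher and 0 lower. Their mean log2 level averaged 15.5 at 125 days and 15.1 at 35 days. The ages overlapped in it (15.27 to 15.76 at 125 days, 14.92 to 15.31 at 35 days). A term for intermediate lobe level gave -0.40 for Dio2 (SE 0.24, adjusted p = 0.478). For Slco1c1 it gave -0.45 (SE 0.31, adjusted p = 0.551). Since the mean log2 levels of the pituicyte, endothelial and oligodendrocyte lists separate the ages, age and these marker levels cannot be told apart here. Whether the levels follow the number of these cells was not tested.

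**Figure D2:**
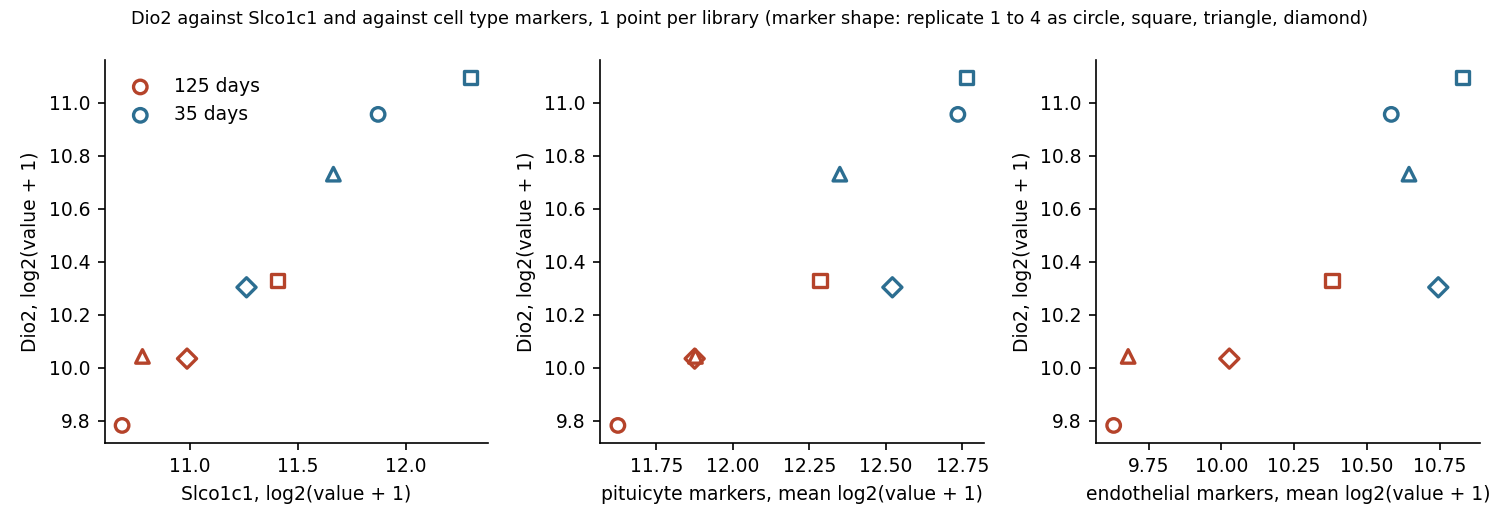
Level of Dio2 in each library, on log2(value + 1), against Slco1c1 (left), the mean of 10 pituicyte markers (middle) and the mean of 8 endothelial markers (right), red for 125 days and blue for 35 days. The 8 libraries lie close to 1 line in the left panel (r = 0.98), and 125-day replicate 2 is the highest of its age in all 3 panels.

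Dio3 encodes the deiodinase that inactivates the hormone. It was at 23.4, 26.4, 32.8 and 11.7 in 125-day replicates 1 to 4, and at 59.6, 55.8, 87.2 and 54.7 in 35-day replicates 1 to 4. All 125-day libraries were below all 35-day libraries. Each library gave 12 to 97 Dio3 reads, so the separate values carry sizeable counting error. The means were 23.6 ± 8.81 at 125 days and 64.3 ± 15.4 at 35 days (SD, n = 4 each), a log2 change of -1.47 (SE 0.31, 95% interval -2.17 to -0.77, limma adjusted p = 0.0104). The call was kept in every fit that left out 1 library (adjusted p from 0.0123 to 0.0298). A term for anterior lobe level ended it (-1.33, SE 0.44, adjusted p = 0.0707), and so did one for intermediate lobe level (-0.92, SE 0.44, adjusted p = 0.353), pituicyte level (-1.58, SE 0.63, adjusted p = 0.222) or endothelial level (-1.82, SE 0.64, adjusted p = 0.323). With the pituicyte or endothelial level the change was larger in size than without it, and the standard error was higher. The summed level of 10 anterior lobe markers ran from 6508 to 50156 at 125 days and from 24266 to 1394211 at 35 days, highest in 35-day replicate 3, which also had the most Dio3. None of those 10 markers was at 0 in any library, and 4 of them were called lower by limma, 5 by edgeR and 9 by DESeq2. Dio3 also followed the level of a list of blood and liver markers (r = 0.94, and 0.73 within ages). Of 4 of these tested, 3 blood genes were called lower (Hbb, Hba-a2 and Alas2). The liver gene Apoa1 was not called (log2 change -0.67, SE 0.40, limma adjusted p = 0.282). The liver gene Alb was at 0 in most libraries, at most at 2.43, and was not tested. The list had sums of 862 to 2174 at 125 days and 3565 to 6749 at 35 days, and its part in the Dio3 result was not tested. Between Dio3 and Dio2 r was 0.73, and 0.07 within ages.

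Crym encodes mu-crystallin, which binds triiodothyronine in the cytosol. It was at 1345, 2051, 1408 and 1509 in 125-day replicates 1 to 4, and at 774, 770, 1273 and 847 in 35-day replicates 1 to 4. The ages did not overlap, although 35-day replicate 3 came close to the lowest 125-day library. Dio3 and Crym were thus the 2 of 7 genes whose ages did not overlap, where 24.9% of all genes tested did not. The means were 1578 ± 322 at 125 days and 916 ± 240 at 35 days (SD, n = 4 each), a log2 change of 0.80 (SE 0.19, 95% interval 0.38 to 1.21, limma adjusted p = 0.0160). The Crym call held in each fit without 1 library (adjusted p from 7.45e-04 to 0.0489) and in those with a term for anterior lobe level (0.95, SE 0.25, adjusted p = 0.0310) or intermediate lobe level (1.29, SE 0.20, adjusted p = 0.0100). It did not hold with the pituicyte level (0.86, SE 0.37, adjusted p = 0.250) and the endothelial level (1.26, SE 0.35, adjusted p = 0.176), where the change was as large or larger and the standard error was higher. Within ages its r was 0.07 with the pituicyte level and -0.80 with the intermediate lobe level. With 8 neuron markers r was 0.78, and 0.40 within ages. Of these markers 4 were called higher (Oxt, Rbfox3, Snap25 and Syn1), 1 lower (Nefl), and none was at 0. Their mean log2 level did not overlap (11.20 to 11.41 at 125 days, 10.87 to 11.19 at 35 days), with sums of 35222 to 40836 at 125 days and 28183 to 33196 at 35 days, and their part in the Crym result was not tested.

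**Figure D3:**
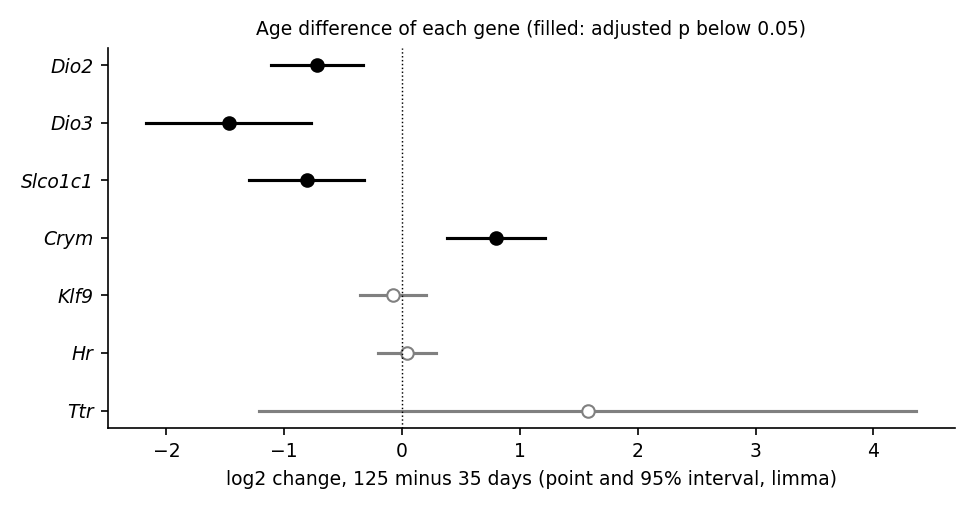
Log2 change of each gene, 125 minus 35 days, with its 95% interval from limma, filled points for genes with an adjusted p below 0.05. Dio2, Dio3 and Slco1c1 lie below 0, Crym lies above, the intervals of Klf9 and Hr span 0 within -0.35 and 0.29, and that of Ttr runs from -1.21 to 4.36.

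Klf9 and Hr encode nuclear proteins whose genes respond directly to the hormone in brain, Klf9 as a transcription factor and Hr as a receptor corepressor. Klf9 was at 2855, 2464, 3181 and 2502 in 125-day replicates 1 to 4, and at 2726, 3537, 2598 and 2768 in 35-day replicates 1 to 4, and the ages overlapped. Its log2 change was -0.08 (SE 0.12, 95% interval -0.35 to 0.20, limma adjusted p = 0.718). Hr was at 1731, 1812, 1731 and 1856 in 125-day replicates 1 to 4, and at 1563, 1768, 1529 and 2105 in 35-day replicates 1 to 4. The 125-day libraries lay inside the range of the 35-day ones, and the log2 change was 0.05 (SE 0.11, 95% interval -0.20 to 0.29, limma adjusted p = 0.820). For both genes the interval leaves out a change as large as the -0.72 estimated for Dio2, in either direction. The interval of Dio2 itself ran from -1.12 to -0.33 and overlapped that of Klf9 but not that of Hr. Whether Klf9 or Hr changed less than Dio2 was not tested.

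Klf9 also responds to glucocorticoids. Of 12 glucocorticoid response and receptor genes 2 rose and 2 fell, with a median log2 change of -0.13. That is 33.3% called by limma, beside 17.7% of all genes tested. With edgeR, and also with DESeq2, 2 of the 12 were called higher and 4 lower. The phosphatase gene Dusp1 rose 2.32 on the log2 scale (SE 0.37, limma adjusted p = 0.00232) and the mineralocorticoid receptor gene Nr3c2 rose 0.77 (SE 0.12). Mt1, a metallothionein gene, had a log2 change of -0.77 (SE 0.15), which missed the threshold in the model with anterior lobe level (adjusted p = 0.0524). The cell cycle inhibitor gene Cdkn1a had a log2 change of -1.01 (SE 0.23), which missed it too (0.0521). Of 10 other Kruppel-like factor genes tested none rose and 2 fell, with a median of -0.01. That is 20% called, near the 17.7% of all genes tested. Klf10 (log2 change -0.34, SE 0.09, limma adjusted p = 0.0270) kept its call without 35-day replicate 3 or 4 but not without any other single library (0.0548 to 0.0927), and missed the threshold with the replicate block (0.0625) and with anterior lobe level (0.0503). Klf11 (-0.56, SE 0.13, limma adjusted p = 0.0175) needed 35-day replicate 2 and 125-day replicates 1 and 3 for its call (otherwise 0.0538 to 0.0605). Of 10 immediate early genes, which stimuli raise quickly in many cells, 6 rose (60%, median log2 change 1.40). On the log2 scale Fosb was at 2.62 (SE 0.31), Junb at 2.54 (SE 0.50), Nr4a1 at 1.44 (SE 0.26) and Btg2 at 1.35 (SE 0.21). A term for intermediate lobe level ended the calls of all 10 genes named in this comparison (adjusted p from 0.1204 to 0.383) except Fosb (2.79, adjusted p = 0.0174), with Nr3c2 at 0.48 and Cdkn1a at -0.64. A term for pituicyte level (adjusted p from 0.0675 to 0.793, Junb at 0.90) or endothelial level (0.126 to 0.880, Cdkn1a at -0.17) ended all 10.

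Ttr encodes transthyretin, the thyroxine carrier protein made by choroid plexus and liver. It was at 6.09, 19.5, 31.5 and 904 in 125-day replicates 1 to 4, and at 28.0, 15.5, 19.6 and 4.52 in 35-day replicates 1 to 4. In recovered reads, 125-day replicate 4 had 925 and the other 7 libraries had 6 to 25. The log2 change of 1.58 (SE 1.25, limma adjusted p = 0.429) rested on that library, since without it the change was 0.14 (SE 0.66, adjusted p = 0.925). On recovered reads edgeR gave 3.93 (adjusted p = 0.0871). Ttr was the only gene at 100 or more in 125-day replicate 4 that was at least 10 times its highest value elsewhere, a criterion that 0 to 2 genes met in each of the other libraries.

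Markers of choroid plexus epithelium did not set that library apart. Of 10 such markers none was called by limma, edgeR or DESeq2 (2 had an unadjusted limma p below 0.05), and none was at 0 in any library. Their summed level was 9714 in 125-day replicate 4, within the 7229 to 13394 of all 125-day libraries and near the 8684 to 11265 of 35-day libraries. Aqp1 alone was at 4988 in that library and at 3355 or more in every library. The sum could therefore not show a small amount of choroid plexus tissue, and whether any was present was not tested. Folr1, the folate receptor gene of that epithelium, was at 35.2 in that library and 22.3 to 41.1 over all 125-day libraries. Alb, the albumin gene of liver, was at 0 in all 4 libraries of 125 days.

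**Figure D4:**
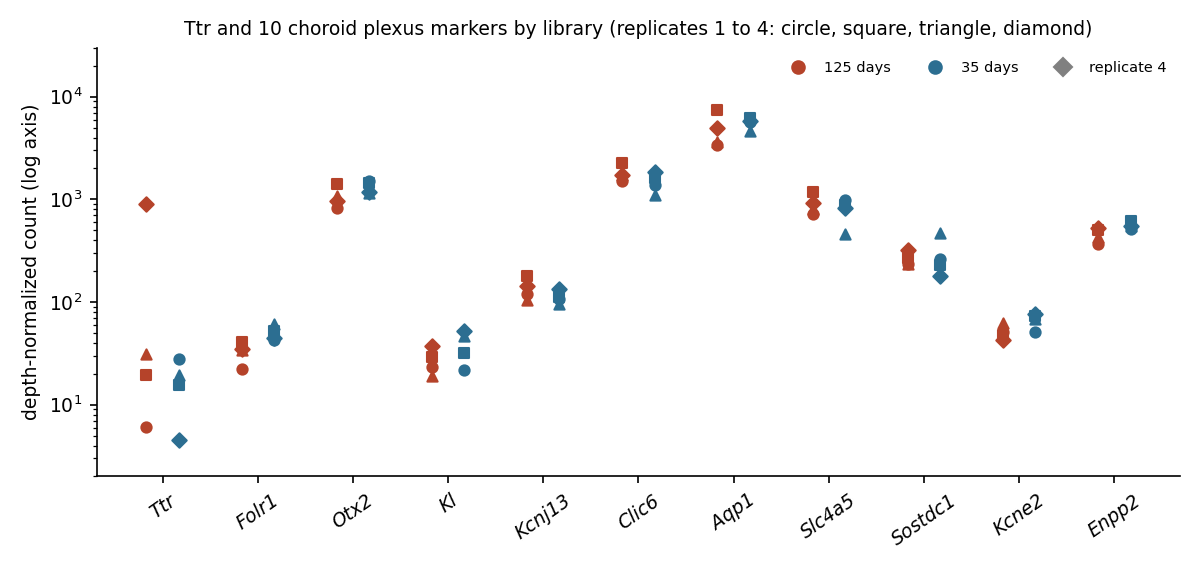
Depth-normalized counts (log axis) of Ttr and 10 choroid plexus markers in each library, 125 days in red left of 35 days in blue, with replicates 1 to 4 as circle, square, triangle and diamond. Replicate 4 of 125 days (red diamond) stands at 904 for Ttr and within or near the other libraries for the markers.

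Over 6 lists of other genes of the pathway, 51 of 57 were measured above the filter, 3 rose and 5 fell at 125 days. That is 15.7%, beside 17.7% of all genes tested, and the median log2 change was 0.0012. Without 35-day replicate 3, 5 rose and 9 fell. With a term for intermediate lobe or endothelial level 0 were called in either direction, and with one for pituicyte level Cga alone was.

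Among the nuclear receptors and their RXR partners, 1 of 5 fell and none rose (median log2 change 0.09). Thrb, encoding the beta receptors, was at 258, 344, 343 and 338 in 125-day replicates 1 to 4, and at 456, 823, 1138 and 537 in 35-day replicates 1 to 4, with no overlap. Its log2 change was -1.12 (SE 0.26, limma adjusted p = 0.0154), a call that needed 125-day replicate 1 (0.0527 without it). The order of the 35-day libraries followed their anterior lobe marker level, and with that level in the model the log2 change of Thrb was -0.55 (SE 0.24, adjusted p = 0.166). Thra, encoding the alpha receptors, was at 5366 ± 436 at 125 days and 4998 ± 246 at 35 days (SD, n = 4 each; log2 change 0.10, SE 0.09, limma adjusted p = 0.483).

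None of 11 coregulator genes, such as the corepressor gene Ncor1, passed the threshold in limma, edgeR or DESeq2 (0 called by each), and 0 had an unadjusted limma p below 0.05. Their log2 changes had a median of 0.06. In 10 of these 11 the lowest 35-day value was in replicate 3, which had the lowest 35-day value in 39.9% of all genes tested.

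Of 8 other carriers of the hormone 2 fell and none rose (median log2 change -0.16). Slco1a4 (log2 change -0.59, SE 0.11, limma adjusted p = 0.00482) and Slco1a5 (-1.75, SE 0.33, limma adjusted p = 0.00621) are organic anion transporter genes of 1 gene cluster with close sequences, so reads may be split between them. Slco1a5 was low, at 12.2 to 35.3 at 125 days and 47.4 to 84.7 at 35 days, and was not tested under the filter of a mean of at least 50. It missed the threshold in the model with anterior lobe level (0.0550).

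**Figure D5:**
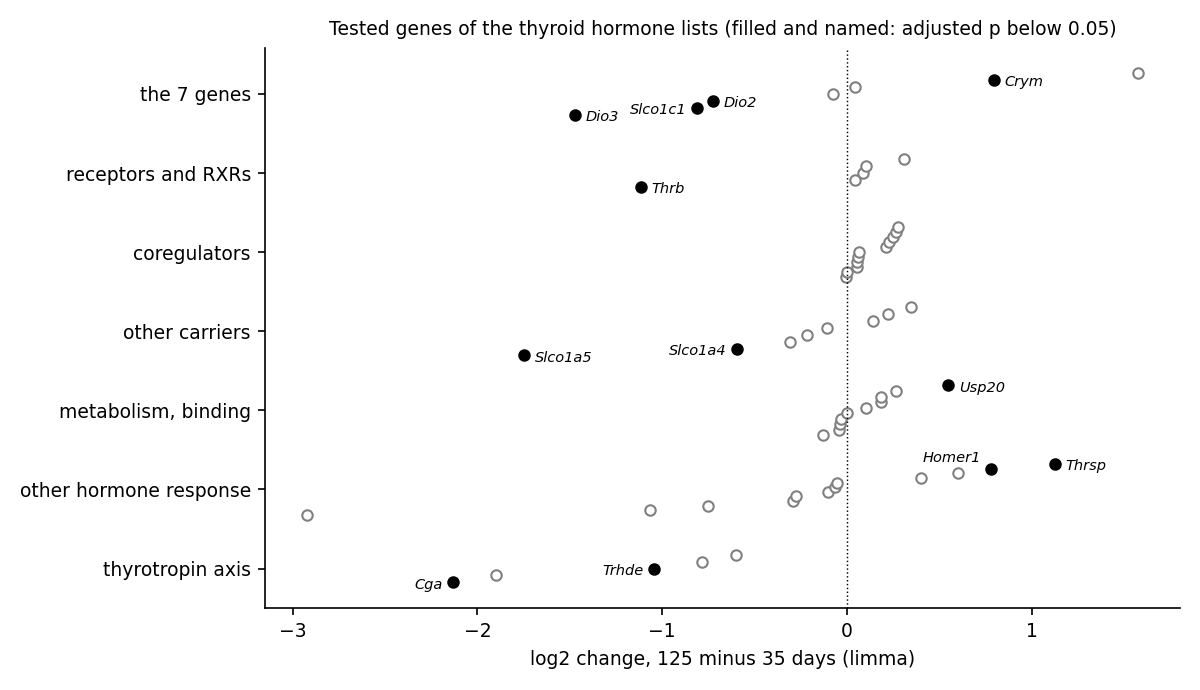
Log2 change, 125 minus 35 days, of every tested gene of the 7 described here and of 6 lists of other genes of the pathway, 1 point per gene, filled and named where the limma adjusted p was below 0.05. Filled points lie on both sides of 0, 5 below and 3 above over the 6 lists.

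In the list for metabolism and binding, 1 of 10 tested genes rose (median log2 change 0.05). Usp20, a deubiquitinase known to stabilise type 2 deiodinase, rose 0.55 on the log2 scale (SE 0.08, limma adjusted p = 0.00148), with no overlap, at 3856 ± 178 at 125 days and 2636 ± 134 at 35 days (SD, n = 4 each). Its partner Usp33 and the ubiquitin ligase genes Wsb1 and Marchf6, which act on the same enzyme, did not pass (adjusted p = 0.994, 0.866 and 0.261). Dio1, encoding the type 1 deiodinase, was at 412 ± 64.0 at 125 days and 360 ± 18.3 at 35 days (SD, n = 4 each; log2 change 0.18, SE 0.13, limma adjusted p = 0.374).

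Of 12 tested genes that the hormone is known to raise in brain, liver or anterior pituitary (Gh1 being the anterior pituitary gene), 2 rose and none fell by limma (median log2 change -0.09). With edgeR 2 were called higher and 0 lower, and with DESeq2 3 higher and 2 lower. Thrsp, a lipid synthesis regulator gene of liver, rose 1.127 (SE 0.30, limma adjusted p = 0.0276). Thrsp kept this call when 35-day replicate 3 or 125-day replicate 2 was left out and missed the threshold without each of the other 6 (0.0541 to 0.0862). The postsynaptic scaffold gene Homer1 rose 0.78 (SE 0.20, limma adjusted p = 0.0226). Homer1 missed the threshold when 35-day replicate 4 or 125-day replicate 1, 3 or 4 was left out (0.0524 to 0.0718) and with anterior lobe level in the model (0.157).

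In the thyrotropin axis 2 of 5 tested genes fell (median log2 change -1.04). Cga, the shared hormone alpha subunit gene, had a log2 change of -2.13 (SE 0.54, limma adjusted p = 0.0222), and -0.81 (SE 0.42, adjusted p = 0.233) with the anterior lobe level, to which it contributes, in the model. Without 35-day replicate 2 or 125-day replicates 2, 3 or 4 its adjusted p was 0.0512 to 0.0674. Trhde, encoding the ectoenzyme that degrades thyrotropin-releasing hormone, had a log2 change of -1.04 (SE 0.26, limma adjusted p = 0.0231). Trhde, like Thrsp, missed the threshold without each library except those 2 (0.0528 to 0.0706). Tshb, the thyrotropin beta subunit gene, was at 332 to 1084 at 125 days and at 74.3 to 724 in 3 of the 35-day libraries, and at 22675 in 35-day replicate 3. Its log2 change was -0.60 (SE 1.37, limma adjusted p = 0.805), and without that library 0.98 (SE 0.67, adjusted p = 0.299). Tshr, the thyrotropin receptor gene, had a log2 change of -0.78 (SE 0.26, limma adjusted p = 0.0655). It was called lower by edgeR (0.0446), by DESeq2 (0.00849), with anterior lobe level in the model (0.0200) and without 35-day replicate 3 (log2 change -1.05, adjusted p = 0.00117).

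The genes whose pattern over the 8 libraries was most like that of each of the 7 were found by Pearson's r on log2(value + 1), among named genes with a mean of at least 100. For Dio2 they were Akap7 (0.98), Gstt3 (0.98) and Zfp24 (0.98). For Slco1c1 they were Gstt3 (0.98), Slc30a5 (0.98) and Dio2 itself. For Dio3 they were Rbm26 (0.98), the beta-globin gene Hbb-bs (0.97) and Fbxo5 (0.96), and for Crym they were Slc43a2 (0.97), Mon1a (0.97) and Haus5 (0.97). Klf9 was most like Tcof1 (0.93), Hif1a (0.87) and Npy2r (0.87), and Hr most like Fbxl18 (0.98), Dvl1 (0.95) and Slc7a11 (0.94). For Ttr, where 1 library sets the pattern, they were Gsto2 (0.88), Pfkfb4 (0.84) and Nsun5 (0.80).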

How the data were processed

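The authors deposited 1 table of depth-normalized signal for 33294 genes in 8 libraries. From the values, it holds gene read counts divided by 1 size factor per library (0.793 to 1.77): dividing each column by its lowest value above 0 gave whole reads for 100% of entries (tolerance 0.001 reads). Columns of the authors' means were not used. Build rn7, HISAT2 2.2.1, featureCounts (Subread 2.0.1), Trimmomatic 0.39, SAMtools 1.13 and DESeq2 1.34.0 are named, without their roles, in the submitters' processing notes. For the annotation and the use of strand, nothing is given in the sources used here, so overlapping or antisense genes cannot be told apart.

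In R 4.3.3, limma 3.58.1 with its trend option was fitted to log2(value + 1), which understates the change of low genes, for genes at 10 or more in at least 4 libraries, as a two-sided test with age as the only term. As alternatives the recovered reads were tested with DESeq2 1.42.0 and with edgeR 4.0.16, and pseudocount, filter, scaling, trend, replicate block, marker terms and single libraries were varied. Markers of other cell types (8 lists) were described by level. Intervals and read numbers cover counting error or replicate spread only. The 7 genes and all lists were chosen with earlier results of these data known. Named genes were the 7, called list members (at most 4 a list), Thra, Thrb, Tshb, Tshr, and the 3 most correlated genes of each member; other genes named were chosen after their values were seen. Some items named by this rule are not reported here. No 2 libraries looked like copies: within an age, chi-square per degree of freedom was 14.2 to 259.98. Figures were drawn with matplotlib 3.10.9.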

Additional observations from a re-analysis of the deposited data

Results flagged for a closer look

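Values that stood far from the other 3 libraries of their age, by Dixon's criterion, were looked for in 72 sets of 4, where chance flags about 1 set in 20. Ttr in 125-day replicate 4 was at 904, against 6.09 to 31.5 in the other 125-day libraries. Dio3 in 35-day replicate 3 was at 87.2, against 54.7 to 59.6, and Crym in the same library was at 1273, against 770 to 847. That library also stood apart in the thyrotropin subunit genes, with Tshb at 22675, against 74.3 to 724, and Cga at 67887, against 9714 to 19543. The anterior lobe marker level of 125-day replicate 2 was 7.17, against 8.99 to 9.27 in the other 125-day libraries. Thrb in 125-day replicate 1 was at 258, against 338 to 344, and Fosb in 125-day replicate 4 was at 1832, against 913 to 985.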

How the results depend on the processing

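Pseudocounts of 0.5 and 5, no filter, a mean of at least 50 (where Dio3 was not tested), trimmed mean and upper quartile scaling, edgeR and DESeq2 kept the direction and the call of Dio2, Dio3, Crym and Slco1c1 where tested. No intensity trend ended the Slco1c1 call (-0.81, adjusted p = 0.0527). Ttr was at 3.93 with edgeR and has no DESeq2 value, as its adjusted p was not given. DESeq2 called 9 other pathway genes lower, against 5.

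Marker terms ended 2 (anterior lobe) to 4 (pituicyte, endothelial) of the 4 calls among the 7 genes. With anterior lobe level, Dio3 was at -1.33 and Slco1c1 at -0.96, leaving 1 of the 7 genes called lower, and Tshb turned to 2.83. With intermediate lobe level, Dio2 was at -0.40, Dio3 at -0.92 and Slco1c1 at -0.45, Hr turned to -0.077 and Tshb to 1.47. None (0) of the 7 was then called lower, 0 other pathway genes were called in either direction, and 238 genes in all were higher and 366 lower. With pituicyte level, Dio2 was at -0.11, Dio3 at -1.58, Crym at 0.86 and Slco1c1 at 0.025, while Thrsp turned to -0.014, Trhde to 0.18 and Tshr to 0.041. With it 0 of the 7 were called, 0 other pathway genes were higher and 1 lower, and 167 genes were higher and 259 lower. With endothelial level, Dio2 was at -0.33, Dio3 at -1.82, Crym at 1.26 and Slco1c1 at -0.10. With it 0 of the 7 and 0 other pathway genes were called, and 43 genes were higher and 130 lower. Through their correlation with age alone, these terms would raise the standard errors by 1.38 (anterior), 1.52 (intermediate), 1.93 (pituicyte) and 1.99 (endothelial) times. This holds only if a gene's spread around the fit is unchanged. The fitted standard error of Dio2 went from 0.18 to 0.26 with pituicyte level, and that of Cga from 0.54 to 0.42 with anterior lobe level. The cause of the lost calls was not tested further.

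Leaving out 1 library at a time gave -0.88 to -0.62 for Dio2, -1.65 to -1.18 for Dio3, 0.66 to 0.97 for Crym, -0.98 to -0.63 for Slco1c1, -0.15 to 0.021 for Klf9, -0.014 to 0.14 for Hr, 0.14 to 2.47 for Ttr and -1.77 to 0.98 for Tshb, the highest without 35-day replicate 3. It gave 1 to 3 of the 7 called lower and 1 higher, 3 to 9 other pathway genes lower and 1 to 5 higher, and 1032 to 2649 genes lower and 860 to 2846 higher, the highest counts without 35-day replicate 3.

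After each age's mean was removed, same-numbered libraries correlated at 0.04, 0.17, -1.90e-04 and -0.12. Libraries of different numbers were not compared, so these values cannot decide whether replicate numbers pair the libraries. With the replicate block the 7 genes kept their calls (Dio2 -0.72, Dio3 -1.47, Crym 0.80, Slco1c1 -0.81), and 1290 genes were higher and 1428 lower. The block lowered the standard error of Dio2 (0.176 to 0.149), Dio3 (0.313 to 0.253) and Slco1c1 (0.220 to 0.151). It raised that of Crym (0.186 to 0.189). Dio3, at 12 to 97 reads, and Ttr outside 1 library, at 6 to 25, are limited by depth.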
